A study of Mus musculus with 4 samples.

Results

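The 10 genes described here encode lysosomal enzymes that prepare protein antigens for display: the proteases Ctss, Lgmn, Ctsb, Ctsd, Ctsl, Ctsz, Ctsh, Ctsc and Ctsa, and the thiol reductase Ifi30. They were taken by symbol, and all 10 were found among the 32285 genes of both single-cell expression matrices. The cells were sorted from subcutaneous tumours of MC38, a mouse colon carcinoma line. Hosts were female C57BL/6 mice, 12 to 16 weeks of age. Control recipients were Prdm1 f/f, that is, both copies of Prdm1 were flanked by loxP sites. Knockout recipients were Prdm1 f/f CD19cre, in which Cre recombinase is made in the B lineage. The product of Prdm1, Blimp-1, is a transcriptional regulator that plasma cells need. Tumours of 11 recipients per genotype were pooled on day 18, and live B220+ and live CD138+ cells were mixed after sorting, at a ratio not given in the sources used here. Each genotype is 1 expression library, so no difference between genotypes has a replicate check, no test was made, and genotype cannot be told apart from library batch.

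Proteins taken up from outside are cut into peptides in acidic compartments of the endosome and lysosome. There MHC class II molecules are held by the invariant chain, which proteases trim away step by step until a peptide can bind. Cathepsin S is best known for the late cuts of the invariant chain in B cells and dendritic cells, and cathepsin L for the same step in thymic epithelium. The reductase GILT, encoded by Ifi30, opens disulfide bonds so that proteases can reach the chain beneath. Legumain cuts after asparagine and also matures other cathepsins. The same enzymes degrade proteins in cells that present no antigen, so their presence alone does not mark a presenting cell.

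Promoter sequences of 3 of the genes are shown because the genes split into unlike patterns over the cell types below. Ctsd was the one member that was high in NK-like and basophil-like cells, Ifi30 was the leading member in B-like cells, and Ctss was highest in macrophage-like cells. The sequences are from RefSeq on GRCm38.p6 and run 5′ to 3′ over the 250 bases before the listed start, on the strand of the gene. Capitals mark CACGTG, the core of the element bound by the lysosomal regulator TFEB, in Ctsd and Ifi30, and the core of the interferon-stimulated response element (ISRE) in Ctss. In the same order the windows lie at chr7:142387828-142388077 (minus strand), chr8:70766664-70766913 (minus strand) and chr3:95526536-95526785 (plus strand).
Ctsd: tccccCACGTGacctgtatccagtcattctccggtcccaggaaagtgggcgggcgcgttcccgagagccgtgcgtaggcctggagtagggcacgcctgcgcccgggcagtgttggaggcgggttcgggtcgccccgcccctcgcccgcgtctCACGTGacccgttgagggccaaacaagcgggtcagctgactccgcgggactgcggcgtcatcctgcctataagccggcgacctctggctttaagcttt
Ifi30: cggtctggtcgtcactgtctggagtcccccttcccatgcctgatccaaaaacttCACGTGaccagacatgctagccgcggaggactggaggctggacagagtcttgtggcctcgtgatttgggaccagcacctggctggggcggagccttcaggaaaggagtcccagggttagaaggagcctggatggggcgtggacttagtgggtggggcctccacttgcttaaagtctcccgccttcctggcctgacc
Ctss: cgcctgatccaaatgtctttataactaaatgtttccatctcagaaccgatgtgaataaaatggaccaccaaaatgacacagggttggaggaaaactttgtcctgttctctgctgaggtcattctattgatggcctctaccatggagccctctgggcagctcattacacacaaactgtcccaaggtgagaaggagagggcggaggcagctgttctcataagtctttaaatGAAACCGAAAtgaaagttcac

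RefSeq promoter entries were matched for 8 of the 10 genes, all but Ctsb and Ctsh. On either strand of the 250 bases before a listed start, CACGTG was present in 5 of the 8 (Ifi30, Lgmn, Ctsd, Ctsl and Ctsa), against 6.86% of the 27025 genes in the table. The longer GTCACGTG, which contains CACGTG, was present in 4 of the 8 (Ifi30, Lgmn, Ctsd and Ctsa), against 2.11% of genes. For Lgmn, Ctsl and Ctsa the match precedes a listed start that lies inside the gene. The ISRE core was present in Ctss alone, 21 bases before its start, against 3.46% of genes. TTCNNNGAA, the gamma-activated site, was present in Ctsc alone, against 8.13% of genes, and CCAAT in Lgmn and Ctsz, against 37.5%. These are matches of letters, and no binding was measured.

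The genes lie apart on the mouse genome (RefSeq, GRCm38.p6), with Ctss at chr3:95526786-95556405, Ifi30 at chr8:70762773-70766663, Lgmn at chr12:102394082-102439728 and Ctsd at chr7:142375910-142387827. Besides Ctss, the papain-like cysteine protease genes are Ctsb at chr14:63122462-63145923, Ctsl at chr13:64361890-64370772, Ctsz at chr2:174427494-174439039, Ctsh at chr9:90054267-90076095 and Ctsc at chr7:88278024-88315861. The serine carboxypeptidase gene is Ctsa at chr2:164832872-164841032. UMIs were counted over each whole gene, so no exon or transcript form is told apart.

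Depth was 6976374 UMIs (unique molecular identifiers, each counting 1 captured RNA molecule) over 816 barcodes in the control library, a median of 5851 per barcode. The library labelled knockout, called the knockout library here by its label, had 5463434 UMIs over 897 barcodes, a median of 3966, and 3 barcode sequences were shared by both libraries. Filters left 800 and 862 cells. The targeted gene had 43 UMIs in the 47 plasma-like cells of the control library. In B-like cells Prdm1 had 1 UMI in 239 control cells and 16 UMIs in 287 knockout cells, which does not show loss of the transcript. The labels do not say which exons the loxP sites flank, so whether these 5′ tags lie in the deleted stretch was not tested. No plasma-like cell was found in the knockout library, where 0 of 862 cells allows a share of up to 0.427%.

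Cell types were taken from clusters made without immunoglobulin genes, the 10 members and 70 other lysosomal and MHC class II genes, so that the members did not define the classes they are compared over. In the control and knockout libraries in turn there were 239 and 287 B-like cells and 37 and 38 plasmacytoid dendritic cell-like (pDC-like) cells. There were 119 and 59 macrophage- or monocyte-like cells (called macrophage-like below) and 138 and 223 NK-like cells. Cycling cells (28 and 37) and unnamed cells (35 and 89) were kept apart. Of the unnamed cells, 17 and 75 lay in a cluster that scored highest for NK cell markers, with 11 of 11 detected. They are not part of the NK-like values. A further cluster of 71 and 17 cells scored highest for neutrophil markers (2.83, against 0.57 for macrophage or monocyte markers), and S100a8 was its first leading gene. In control cells 7 of 13 neutrophil and 7 of 12 macrophage or monocyte markers were found in at least 10% of cells. In knockout cells these were 11 of 13 and 8 of 12. The name also needed 2 of 4 defining markers, Cxcr2, Ly6g, Retnlg and Mmp9, which its control cells nearly lacked. Ly6g and Retnlg had no UMI there, and Cxcr2 and Mmp9 were each found in 1 of 71 cells, whereas the macrophage gene Fcgr1 was found in 50 of 71. Of its 17 knockout cells, Retnlg was found in 2, Ly6g in 1 and Fcgr1 in 10. It is called the Gpnmb cluster here, after one of its leading genes, and no class could be called neutrophil-like. Levels are UMIs of a gene per 1000000 UMIs of the class (CPM), with exact 95% intervals that cover counting error only, not the spread between cells, mice or libraries.

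**Figure D1:**
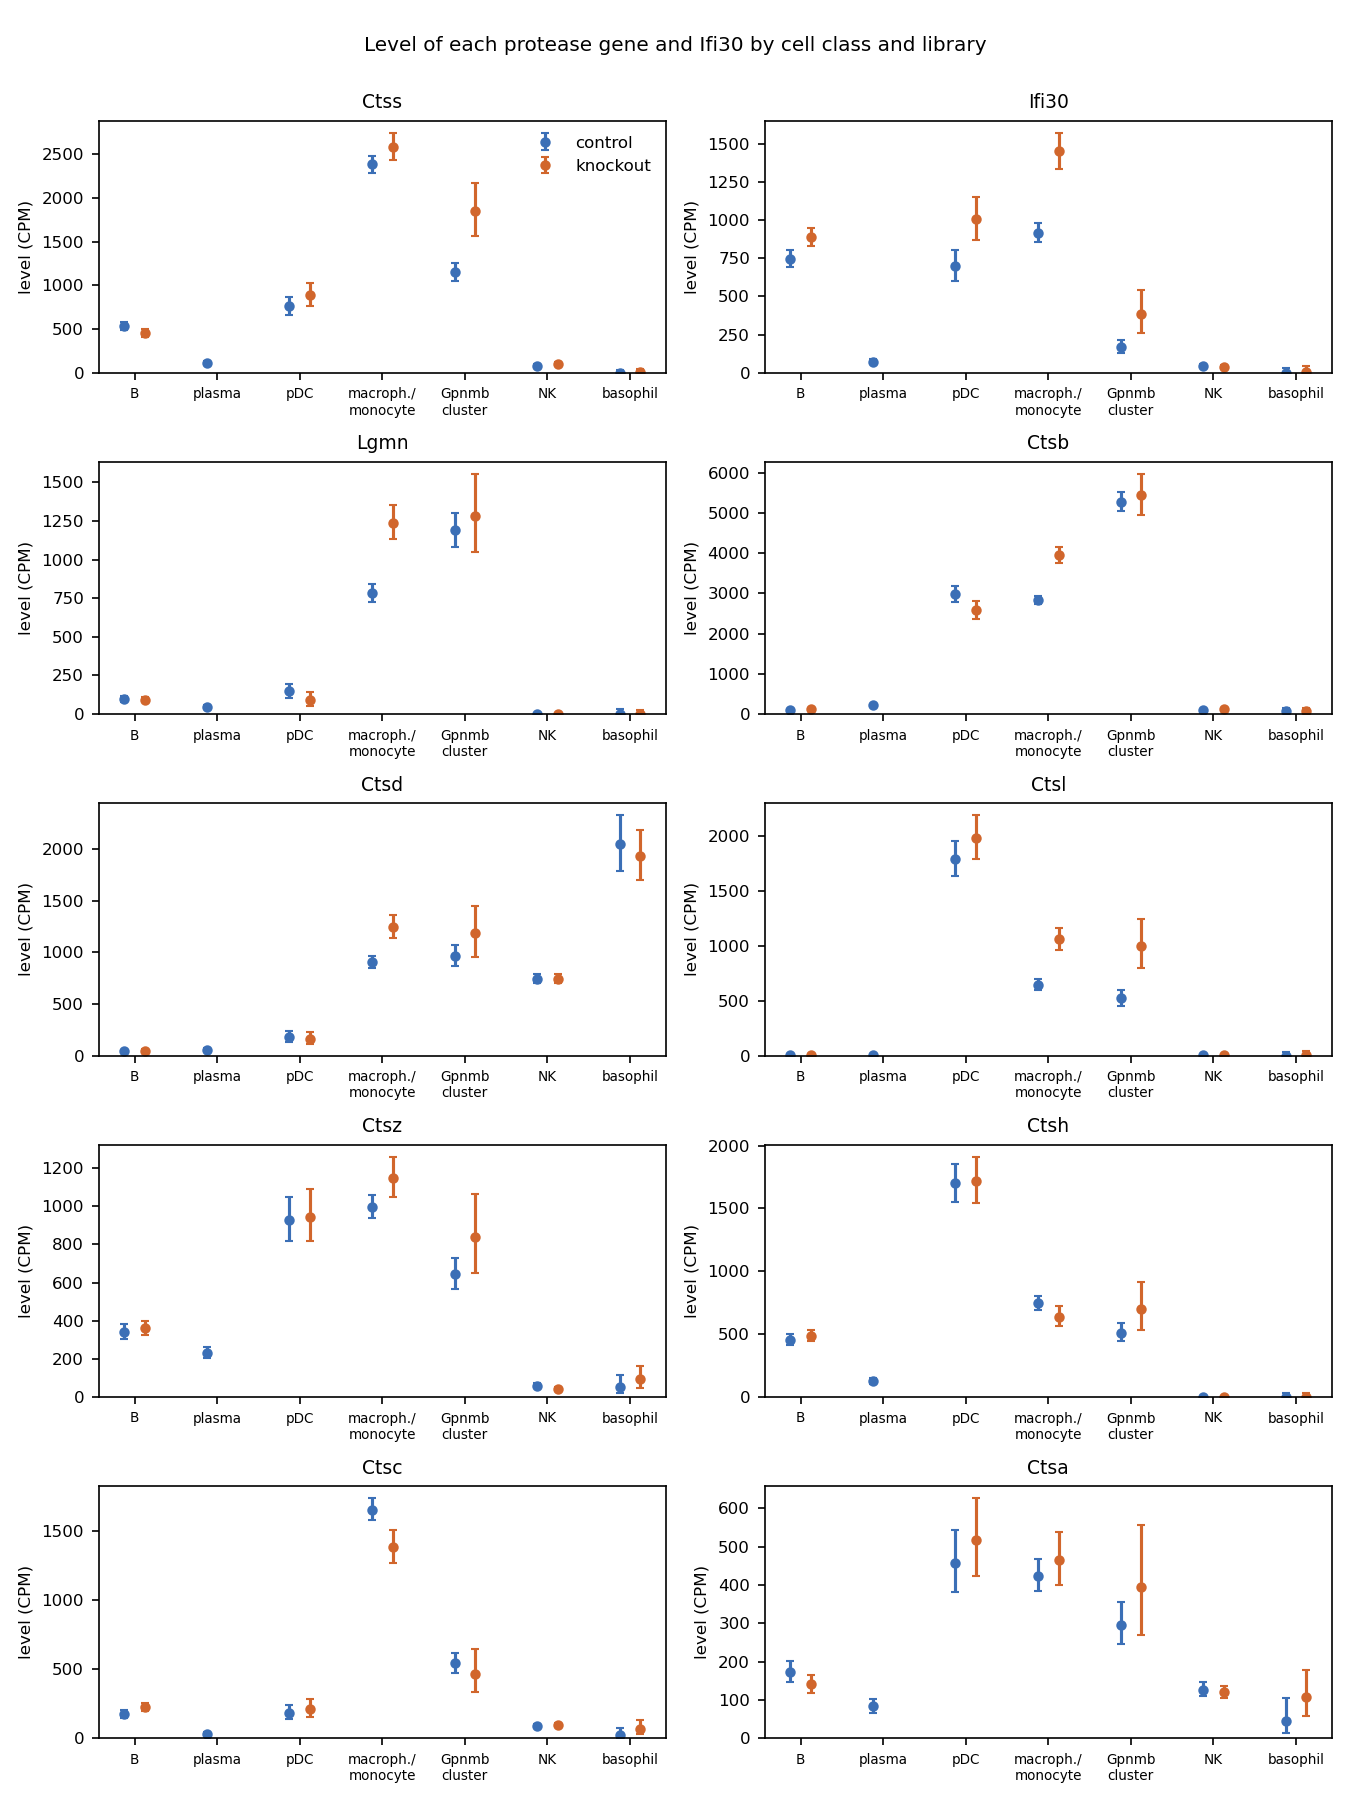
Level (CPM, linear axis from 0) of each of the 10 genes in 7 cell groups, with points for the control (blue) and knockout (orange) libraries and bars for the exact 95% Poisson interval. Ctsd alone peaks in basophil-like cells (2046 and 1933 CPM) and Ctsl and Ctsh peak in pDC-like cells; plasma-like cells exist in the control library only.

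B-like cells carried the enzymes of invariant chain and disulfide processing at moderate levels and nearly no cathepsin L. Ifi30 was the leading member at 748 CPM in control and 888 CPM in knockout cells, and it made 28.0% and 31.4% of all UMIs of the 10 genes. Ctss followed at 531 and 451 CPM, the aminopeptidase gene Ctsh at 456 and 486 CPM and the carboxypeptidase gene Ctsz at 343 and 359 CPM. The dipeptidyl peptidase gene Ctsc (173 and 227 CPM) and the serine carboxypeptidase gene Ctsa (173 and 141 CPM) were lower. Lower again were Ctsb at 107 and 128 CPM, Lgmn at 96.2 and 93.4 CPM and the aspartic protease gene Ctsd at 42.2 and 47.7 CPM. Ctsl had 5 UMIs in 239 control cells and 9 UMIs in 287 knockout cells. The macrophage gene Lyz2, at 11916 and 9931 CPM in macrophage-like cells, had 0 and 2 UMIs in B-like cells. At the mean macrophage-like ratio of Ctsb to Lyz2, the knockout count corresponds to up to 2.86 CPM of Ctsb. That value does not cover RNA from pDC-like cells, which had 1 and 0 Lyz2 UMIs. Their gene Siglech, at 2690 and 2273 CPM in them, had 0 and 4 UMIs in B-like cells. RNA from the Gpnmb cluster, with Ctsb at 5278 and 5441 CPM, is not covered by that value either. There the 12 macrophage or monocyte markers, Lyz2 among them, summed to only 4192 and 3751 CPM.

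The B-like cells fell into a cluster led by Fcer2a (CD23, a marker of follicular B cells; 173 control and 109 knockout cells), a cluster with Fcrl5 among its leading genes (52 and 158 cells) and a small cluster of 14 and 20 cells. Ifi30 was at 538 CPM in the Fcer2a cluster and 980 CPM in the Fcrl5 cluster of the control library, a ratio of 1.82 (95% interval 1.55 to 2.15). In the knockout library the levels were 649 and 991 CPM, a ratio of 1.53 (1.29 to 1.81). Ifi30 was the 1 member of 10 at least 1.5-fold higher in the Fcrl5 cluster in both libraries, where 6.55% of 4090 genes were, and no member was lower by that fold, where 5.57% were. Ctss went the other way, at 557 against 455 CPM in control cells and 537 against 389 CPM in knockout cells, ratios of 0.817 (0.667 to 0.996) and 0.724 (0.587 to 0.895). Median UMIs per cell were 2925 and 2464 in the Fcer2a cluster and 5358 and 3016 in the Fcrl5 cluster, and their part in these ratios was not tested.

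Plasma-like cells, 47 in the control library, were set beside B-like cells of the same library. At least 2-fold lower were 6 of the 10 members, a share near the 47.4% of 3711 genes that were. The median log2 ratio was -1.16 for the members tested and -0.93 for all genes. Ifi30 was 70.2 CPM against 748 CPM (10.7-fold lower), Ctsc 34.1 against 173 CPM (5.07-fold), Ctss 106 against 531 CPM (4.99-fold) and Ctsh 125 against 456 CPM (3.64-fold), and Lgmn and Ctsa were just past the threshold at 2.23- and 2.08-fold. Ctsb was the 1 member at least 2-fold higher, at 231 against 107 CPM (ratio 2.15, 1.70 to 2.76), where 9.75% of genes were. Immunoglobulin genes took 47.2% of the UMIs of these cells, which lowers every other gene's CPM. Scaled to UMIs outside immunoglobulin genes, 3 members were lower (Ctss, Ifi30 and Ctsc) and 2 were higher (Ctsb and Ctsd). All 10 of the listed MHC class II presentation genes were at least 2-fold lower there on the CPM of all genes.

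The pDC-like cells held the highest levels of Ctsl and Ctsh in both libraries. Ctsl was at 1786 and 1980 CPM in control and knockout cells, against 5.41 and 8.94 CPM in B-like cells, which rest on 5 and 9 UMIs. The ratios to B-like cells were 330 (141 to 1022) and 221 (115 to 488). Ctsb was at 2980 and 2587 CPM, 27.8- and 20.2-fold above B-like cells, and Ctsh at 1699 and 1721 CPM, 3.72- and 3.54-fold above. With Ctsd, Ctsz and Ctsa, 6 of 10 members were at least 2-fold higher in both libraries, where 12.1% of 5345 genes were, and none was lower by that fold, where 8.66% were. Lgmn was at 147 and 89.5 CPM and Ctsc at 185 and 214 CPM, with ratios to B-like cells between 0.944 and 1.52. The ratios of Ctss were 1.43 (1.22 to 1.68) and 1.97 (1.65 to 2.35), under 2-fold with intervals above 1 in both libraries. For Ifi30 they were 0.933 (0.793 to 1.09) and 1.13 (0.966 to 1.32), with intervals that include 1.

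Macrophage-like cells held the most Ctss, Ifi30, Ctsz and Ctsc of the 7 groups plotted. Ctss was at 2385 and 2584 CPM, Ctsc at 1657 and 1386 CPM and Ctsz at 997 and 1151 CPM. The Ctsz intervals overlapped those of pDC-like cells (928 and 945 CPM) in both libraries. Of the 10 members, 8 were at least 2-fold above B-like cells in both libraries, where 17.6% of 6342 genes were, and none was lower by that fold, where 15.4% were. The ratios were 119 and 118 for Ctsl, 26.5 and 30.9 for Ctsb, 21.5 and 26.2 for Ctsd, 8.13 and 13.3 for Lgmn and 4.49 and 5.73 for Ctss. Without 1 knockout cell described further on, the knockout ratios were 63.4 for Ctsl and 15.5 for Ctsd, and the same 8 members passed. Ifi30 and Ctsh were the exceptions: Ifi30 was 1.23-fold (1.11 to 1.36) and 1.63-fold (1.47 to 1.82) above B-like cells, and Ctsh 1.64-fold and 1.32-fold. A Cd79a, Cd79b or Ms4a1 UMI, from B cell genes, was present in 8 of 119 and 6 of 59 macrophage-like cells.

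The Gpnmb cluster held the highest Ctsb of any group, at 5278 and 5441 CPM, which made 46.8% and 40.2% of its UMIs of the 10 genes. Ctsb was 49.3- and 42.4-fold above B-like cells. Lgmn was at 1191 and 1283 CPM, Ctsd at 966 and 1184 CPM and Ctsl at 521 and 999 CPM. At least 2-fold above B-like cells in both libraries were 6 of 10 members, where 13.3% of 5172 genes were. Ifi30 was the 1 member lower, where 19.2% of genes were, at 169 and 382 CPM, or 4.44- and 2.32-fold below B-like cells. With 17 cells the knockout values of this cluster rest on few cells.

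NK-like cells were nearly without Lgmn and Ctsh but carried Ctsd. Ctsd was at 741 and 744 CPM, 17.6-fold (12.8 to 24.9) and 15.6-fold (11.7 to 21.3) above B-like cells, and made 59.0% and 58.3% of their UMIs of the 10 genes. It was the 1 member at least 2-fold higher, where 10.2% of 7488 genes were. Lower by that fold in both libraries were 6 members, Ctss, Ifi30, Lgmn, Ctsz, Ctsh and Ctsc, where 9.08% of genes were. Ctsh had 0 UMIs in 138 control cells, at least 222-fold below B-like cells when 3 UMIs are allowed over the class, and 1 UMI in 223 knockout cells. Ctss stood at 80.7 and 102 CPM and Ifi30 at 44.5 and 40.4 CPM. Ctsc, which activates granzymes in cytotoxic cells, was at 86.2 and 98.4 CPM, about the lower threshold against B-like cells with ratios of 0.498 and 0.434. The cysteine protease gene Ctsw, from the list of other lysosomal proteases, was at 990 and 1043 CPM in NK-like and 3.24 and 6.96 CPM in B-like cells.

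Basophil-like cells, 34 and 45 in number, were the extreme of this pattern. Ctsd was at 2046 and 1933 CPM, the highest level of that gene, 48.5- and 40.5-fold above B-like cells, and it made 91.2% and 84.1% of their UMIs of the 10 genes. Ctss and Ifi30 each had 0 UMIs in the control and 1 UMI in the knockout cells, and Lgmn and Ctsh had none in either. Of the 10 members 1 was at least 2-fold higher than in B-like cells in both libraries, where 10.8% of 4866 genes were, and 6 were lower, where 15.5% were. T-like cells (50 and 62) gave the same counts, with Ctsd 13.6- and 9.41-fold higher, where 8.09% of 5708 genes were, and 6 members lower, where 7.97% were.

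**Figure D2:**
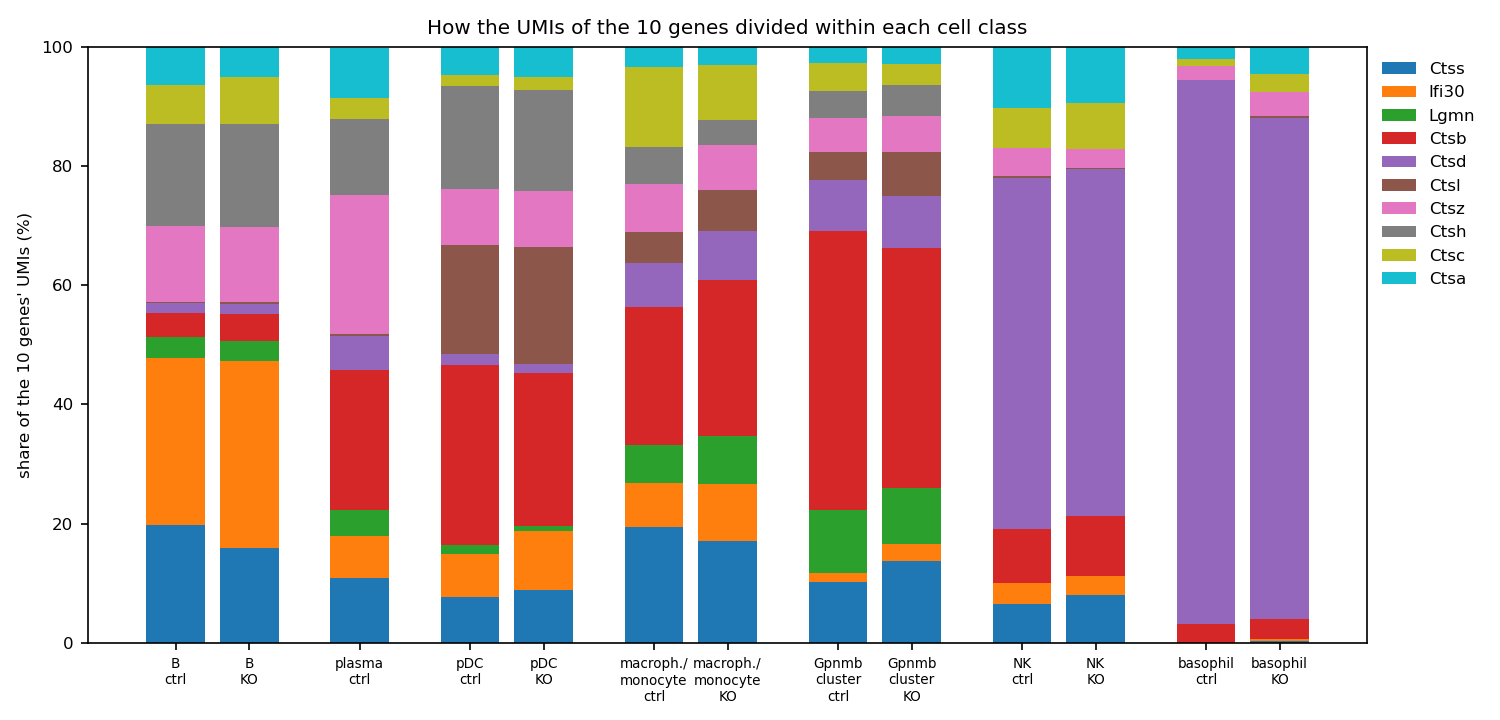
Share (%) of the summed UMIs of the 10 genes taken by each gene, 1 stacked bar per cell group and library (ctrl, control; KO, knockout). Ifi30, Ctss and Ctsh fill most of the B-like bars, Ctsb and Ctsl much of the pDC-like bars, and Ctsd most of the NK-like and basophil-like bars. Shares count UMIs without scaling for gene length.

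Summed over the 10 genes, the level was 2675 and 2830 CPM in B-like cells and 984 CPM in plasma-like cells. It was 9822 and 10113 CPM in pDC-like, 12297 and 15178 CPM in macrophage-like and 11267 and 13547 CPM in Gpnmb cluster cells. NK-like cells stood at 1255 and 1275 CPM and basophil-like cells at 2242 and 2299 CPM.

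**Figure D3:**
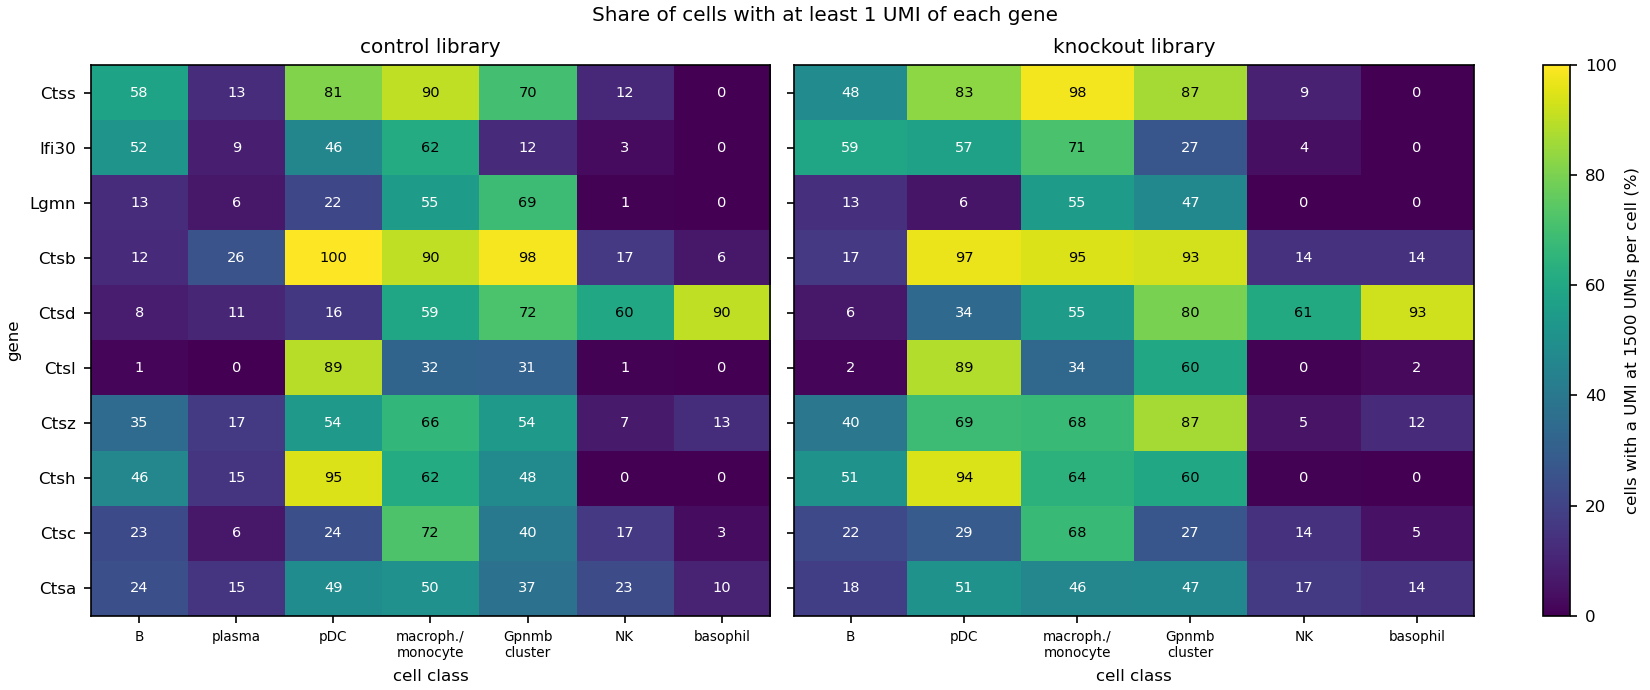
Share (%) of cells with at least 1 UMI of each gene, after each cell was thinned to 1500 UMIs, for each cell group in the control (left) and knockout (right) library. Ctsl is found in 89% of pDC-like cells of both libraries and in 1% to 2% of B-like cells.

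The shares of cells with a UMI, at an equal 1500 UMIs per cell, gave the same contrasts without the pull of single rich cells. Ctsb was found in 100% and 97.1% of pDC-like, 90.4% and 94.6% of macrophage-like and 12.3% and 16.6% of B-like cells. In NK-like cells, at median depths of 7878 and 6613 UMIs before thinning against 3055 and 2713 in B-like cells, the Ctsb share was 16.7% and 14.1%. The thinned shares of Ctsb in B-like and NK-like cells were alike, as were their levels, at 107 and 128 CPM in B-like and 113 and 127 CPM in NK-like cells. Ctsl was found in 89.2% and 88.6% of pDC-like cells but in 1.28% and 1.81% of B-like and 0.725% and 0.455% of NK-like cells. Ctsh was found in 46.4% and 51.3% of B-like cells and in 0% and 0.455% of NK-like cells. Unthinned, the Ctsh shares were 69.0% and 72.1% of B-like cells, and 0% and 0.448% of NK-like cells.

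Macrophage-like cells were not uniform. They divided into the C1q, Vcan and Ace sub-clusters. The C1q sub-cluster (62 control and 33 knockout cells) was led by Pf4 and Arg1. C1qa, C1qb and C1qc (complement genes of tissue macrophages) were among its leading genes, but most of its cells had no C1qa UMI. Mmp12, Hilpda and Gpnmb, leading genes of the Gpnmb cluster, were among them too. The Vcan sub-cluster (32 and 12 cells) had Vcan, a gene of classical monocytes, among its leading genes. The Ace sub-cluster (25 and 14 cells) had Ace, Treml4 and Spn, genes of non-classical monocytes. Ctsl, which was not used to form these sub-clusters but is among the leading genes of the C1q sub-cluster, was at 1173 and 1755 CPM in the C1q sub-cluster, 143 and 140 CPM in the Vcan sub-cluster and 51.8 and 73.3 CPM in the Ace sub-cluster. Against the Vcan sub-cluster, 4 members were at least 2-fold higher in the C1q sub-cluster in both libraries, where 4.52% of 2966 genes were. They were Ctsl (8.18- and 12.5-fold), Lgmn (4.23 and 5.31), Ctsb (2.38 and 2.78) and Ctsd (2.23 and 4.73). Against the Ace sub-cluster, 5 were (Ctsl, Lgmn, Ctsd, Ctsc and Ctsh), where 9.26% of 2721 genes were, and no member was lower in either contrast, where 1.96% and 5.62% of genes were. Ctsb separated the monocyte-like sub-clusters, at 1514 and 1868 CPM with Vcan and 3099 and 2675 CPM with Ace, and Ctsc did so in reverse, at 1374 and 1249 CPM with Vcan and 634 and 318 CPM with Ace.

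**Figure D4:**
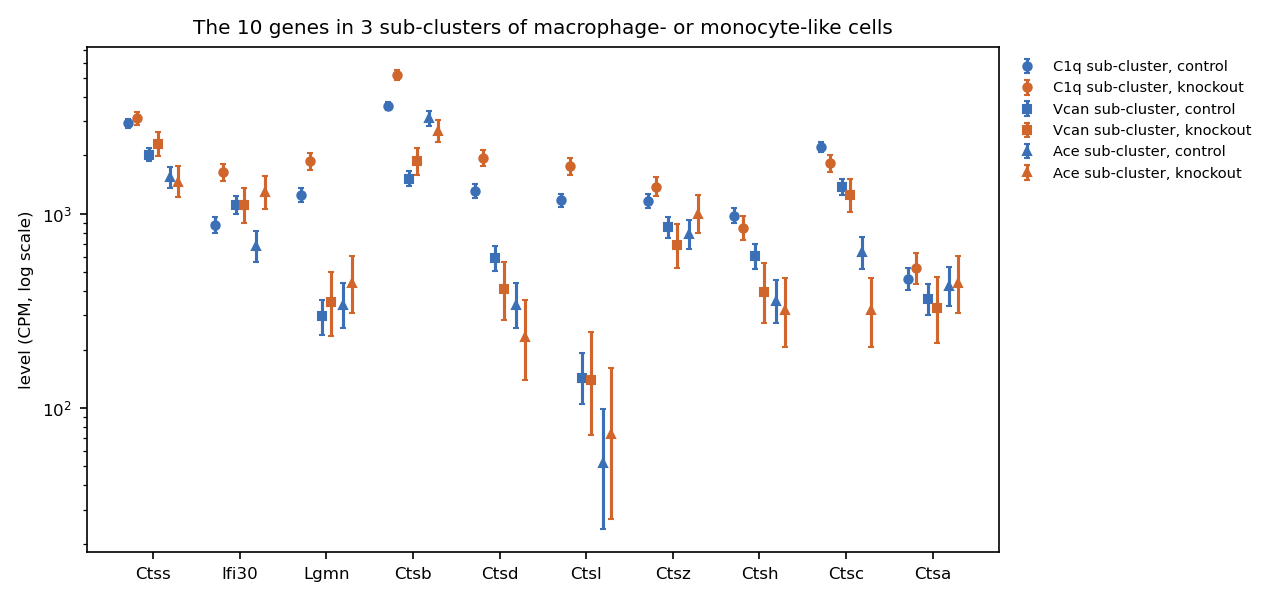
Level (CPM, log axis) of the 10 genes in the C1q (circles), Vcan (squares) and Ace (triangles) sub-clusters of macrophage-like cells, control in blue and knockout in orange, with exact 95% Poisson intervals. Ctsl spans from 51.8 CPM in the control Ace sub-cluster to 1755 CPM in the knockout C1q sub-cluster (919 CPM there without its richest cell, under the 1173 CPM of the control), while Ctsa stays between 327 and 527 CPM.

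A single knockout cell weighs on the knockout values of this class. It lay in the C1q sub-cluster and held 1208 UMIs of the 10 genes, which is 13.0% of its own 9288 UMIs and 20.1% of the 6002 such UMIs of the 59 cells. The next knockout cell held 282 and the richest control cell 438. It alone supplied 199 of the 418 Ctsl UMIs of the class (47.6%), 208 of 494 Ctsd UMIs (42.1%), 127 of 490 Lgmn UMIs (25.9%) and 376 of 1564 Ctsb UMIs. The same cell was rich in Apoe (39944 CPM), Psap (33269 CPM), C1qa (13997 CPM) and Gpnmb (3984 CPM), genes looked up after its member counts had been seen. Without it, the knockout ratios of the C1q to the Vcan sub-cluster became 6.56 for Ctsl, 3.88 for Lgmn, 2.60 for Ctsd and 1.98 for Ctsb, so that Ctsb no longer reached 2-fold in that library.

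Levels in the knockout library were next set beside those in the control library within each class. In B-like cells the members differed little. Of the 9 members that reached 50 UMIs in all, none was 1.5-fold higher or lower, where 4.69% and 7.18% of 4371 genes were, and Ctsl, the tenth, had a ratio of 1.65 (0.498 to 6.28) from 5 and 9 UMIs. Their median log2 ratio was 0.09, against -0.07 for all 4371 genes. The intervals of 3 ratios left out 1: Ifi30 at 1.19 (1.07 to 1.31), Ctsc at 1.31 (1.07 to 1.61) and Ctss at 0.850 (0.746 to 0.968). Of the B-like cells, 52 of 239 in the control library and 158 of 287 in the knockout library lay in the Fcrl5 cluster, and the part of this in the ratios was not tested. Within the Fcer2a cluster the ratios were 1.21 (0.995 to 1.46) for Ifi30, 0.965 (0.786 to 1.18) for Ctss and 1.01 (0.675 to 1.5) for Ctsc. Within the Fcrl5 cluster they were 1.01 (0.883 to 1.16), 0.855 (0.695 to 1.05) and 1.34 (0.993 to 1.82). No member's interval left out 1 in either cluster. Ctsl in the Fcer2a cluster, with 5 and 4 UMIs, was the 1 member at 1.5-fold there, where 4.73% of 2071 genes were higher and 6.23% lower, and in the Fcrl5 cluster no member was, where 7.29% of 2454 genes were higher and 9.74% lower.

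**Figure D5:**
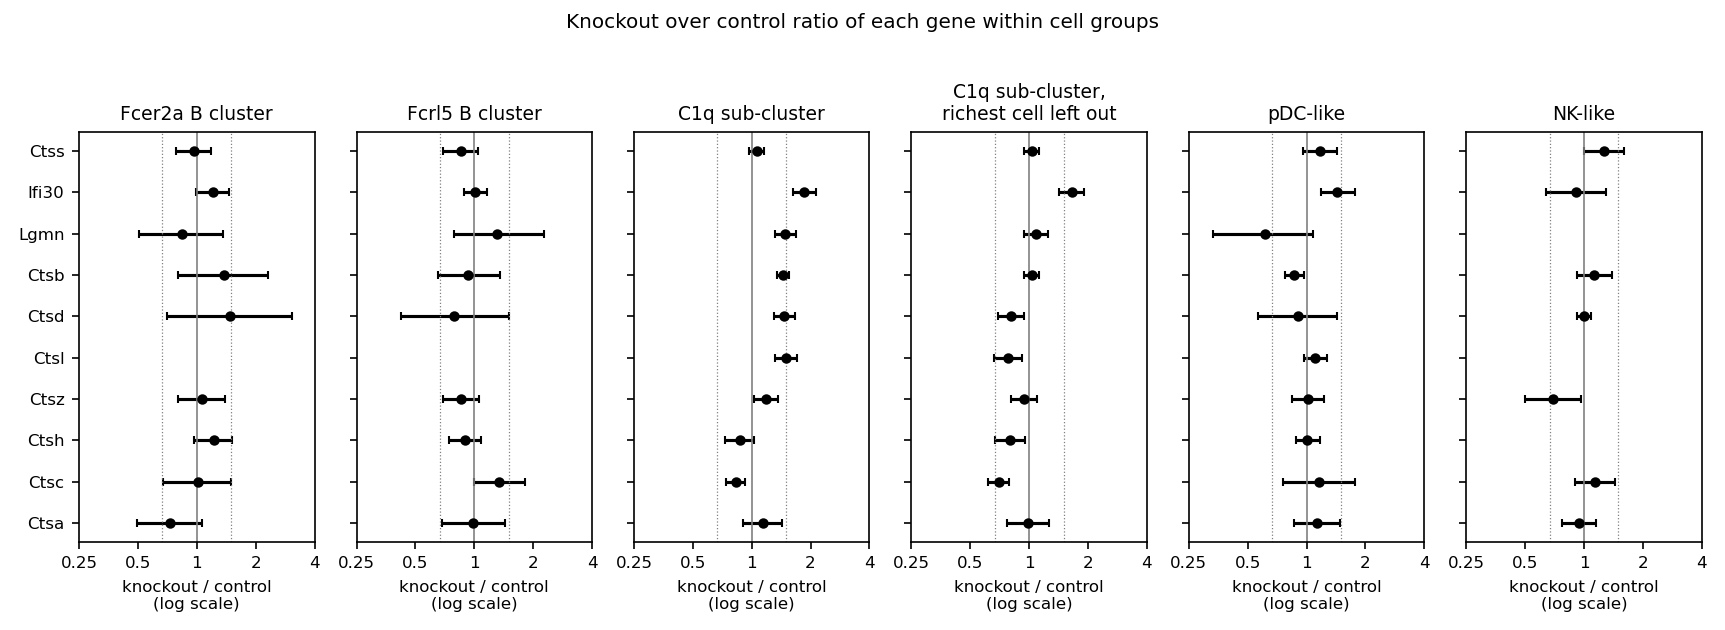
Knockout over control ratio of each gene's CPM (log axis) in 2 B-like clusters, the C1q macrophage sub-cluster with and without its richest knockout cell, pDC-like and NK-like cells; bars are exact conditional 95% intervals, dotted lines mark 1.5-fold, and genes with under 10 UMIs in a group are left out. In the C1q sub-cluster Ctsd stands at 1.47 with that cell and at 0.809 without it, and Ifi30 at 1.86 and 1.65.

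Macrophage-like cells lie outside the B lineage, in which Cre is made. Ifi30 (919 and 1452 CPM, ratio 1.58), Lgmn (783 and 1239 CPM, 1.58) and Ctsl (642 and 1057 CPM, 1.65) were at least 1.5-fold higher in the knockout, where 6.30% of 3507 genes were, and none was lower, where 6.76% were. Without the single rich cell, and with all control cells kept, 0 members passed 1.5-fold in either direction. The ratios were then 1.46 (1.31 to 1.63) for Ifi30, 1.20 (1.06 to 1.36) for Lgmn and 0.883 (0.754 to 1.03) for Ctsl. With each gene's top cell left out of both libraries, Ifi30 still passed 1.5-fold, and Lgmn and Ctsl did not. Ctsd went from 1.38 to 0.817 (0.712 to 0.934). Ctsc, at 1657 and 1386 CPM, had a ratio of 0.836 (0.758 to 0.922) with that cell and 0.734 (0.661 to 0.814) without it. The Ifi30 ratio was 1.86 (1.62 to 2.14) in the C1q sub-cluster, 1.90 (1.45 to 2.50) in the Ace sub-cluster and 1.0 (0.789 to 1.26) in the Vcan sub-cluster. Without the rich cell it was 1.65 (1.42 to 1.91) in the C1q sub-cluster. Ifi30 was the 1 member at least 1.5-fold higher in the C1q sub-cluster, where 7.67% of 2086 genes were, and none was lower, where 9.01% were. In the Ace sub-cluster Ifi30 was the 1 member higher, where 10.8% of 793 genes were, and Ctsc the 1 lower, at 634 and 318 CPM, where 7.19% were. In the Vcan sub-cluster no member was higher, where 8.86% of 1276 genes were, and Ctsh was the 1 lower, at 604 and 397 CPM, where 8.86% were. C1qa, a gene of the naming list, stood at 371 and 1060 CPM in this class and was found in 22 of 119 and 12 of 59 cells. Most of the 62 and 33 cells of the C1q sub-cluster thus had no C1qa UMI. The part of C1qa in these ratios was not tested. The rich cell held 130 of the 419 knockout C1qa UMIs. The 12 B cell markers summed to 111 and 324 CPM in macrophage-like cells, and their part was not tested either.

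In NK-like cells Ctsd, the abundant member there, had a ratio of 1.0 (0.926 to 1.09). None of the 7 members that reached 50 UMIs passed 1.5-fold in either direction, where 2.56% of 5905 genes were higher and 2.79% lower, and their median log2 ratio was 0.01. Lgmn (2 and 1 UMIs) and Ctsl (5 and 3 UMIs), below that count, were past 1.5-fold lower, with ratios of 0.399 (0.00677 to 7.67) and 0.479 (0.0744 to 2.46). Beside these, the NK-like ratios of the class II genes Cd74, H2-Aa and H2-Eb1 were 0.600, 0.390 and 0.533. UMIs of the 12 B cell markers there were 26 and 7, and their part in the ratios was not tested. Ctsz had a ratio of 0.696 (0.502 to 0.961), from 58.2 and 40.4 CPM, just inside the threshold. In pDC-like cells 1 member passed, Lgmn at 0.611 (0.331 to 1.08) from 42 and 18 UMIs, where 5.45% of 1523 genes were lower, and none was higher, where 4.92% were. Ifi30 was at 698 and 1005 CPM in pDC-like cells, a ratio of 1.44 (1.18 to 1.76), but 1 knockout cell held 74 of the 202 UMIs. With the top cell of each library left out the ratio was 1.03 (0.815 to 1.30). In the Gpnmb cluster Ctss (1.61), Ifi30 (2.27) and Ctsl (1.92) were at least 1.5-fold higher in the 17 knockout cells, where 11.8% of 1232 genes were, and none was lower, where 14.3% were. With the top cells left out these were 1.15, 2.43 and 1.54. Markers of other cell types also differed in this cluster: all 12 B cell markers were at 0 in the control, and 7 of 12 had a UMI in the knockout (407 CPM summed; Pax5, Cd22, Blk, Vpreb3 and Fcer2a at 0). The 11 NK cell markers summed to 2.56 and 555 CPM and the 13 neutrophil markers to 2426 and 7033 CPM, and their part in these ratios was not tested. In T-like cells, of 7 members that reached 50 UMIs, Ctsz was higher (19 and 33 UMIs), where 7.24% of 2238 genes were, and Ctsb lower (125 and 67 UMIs), where 7.51% were. The 12 B cell markers summed to 272 and 695 CPM in T-like cells (11 and 10 with a UMI), and 4 of 4 class II genes tested were higher in the knockout, with a median log2 ratio of 1.52. Their part in the Ctsz ratio was not tested. T-like cells pooled clusters with Cd8a (25 control and 10 knockout cells), Tcrg-V6 (16 and 22) and Trbv13-3 (9 and 30) among their leading genes. The part of this change of mix in the T-like ratios was not tested. Ctsd was the 1 member that reached that count in basophil-like cells, with a ratio of 0.945 (0.787 to 1.13), where 6.32% of 680 genes were higher and 5.15% lower by 1.5-fold.

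Against B-like cells the median log2 ratio of the members was 2.64 in macrophage-like cells, 1.53 in pDC-like cells and -2.43 in NK-like cells, beside -0.05, 0.11 and 0.09 for all genes tested. Other lysosomal genes were described from 6 further lists. In macrophage-like cells, lysosome membrane and acidification genes were at least 2-fold above B-like cells in both libraries for 11 of 16 tested, beside 17.6% of all genes (median log2 ratio 1.56, against -0.05), among them Lamp1, Lamp2, Cd63 and the proton pump gene Atp6v0c. The other hydrolases and cofactors were higher for 8 of 14, among them Psap and Grn. Of the sorting and regulation genes 2 of 6 tested were higher, Tfe3 and Mitf. The proteases outside the 10 members were higher for 0 of 6 tested, and Ctso and Ctse were lower. Of the MHC class II presentation genes, 9 of 10 were lower in macrophage-like than in B-like cells, beside 15.4% of all genes, with a median log2 ratio of -2.37, and H2-DMb1 was higher. In pDC-like cells 8 of 10 class II genes were lower, beside 8.66% of all genes, and 1 was higher. There 10 of 13 tested hydrolases and cofactors were higher, beside 12.1% of all genes. In NK-like cells 0 of 15 membrane and acidification genes passed 2-fold in either direction, beside 10.2% of all genes higher and 9.08% lower, and all 10 class II genes were lower. Of 4 protease inhibitor genes tested, Serpinb1a was lower and 2 were at least 2-fold higher in macrophage-like than in B-like cells: Cst3 (cystatin C) at 2632 and 2837 CPM against 386 and 312 CPM, and Cstb at 1776 and 1507 CPM against 81.1 and 89.4 CPM. Cstb was at 4077 and 3109 CPM in the Gpnmb cluster. The aspartic protease gene Napsa, in B-like cells at 837 and 879 CPM, was in the range of Ifi30 there.

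The genes with patterns most like each member were found by Pearson's r of log2(CPM + 10) over 16 combinations of class and library with at least 20 cells, among 6209 genes. The points share libraries, and 2 points of a class are not independent, so r is a description. Ctss was most like Irf5 (r = 0.959), Ifi30 most like H2-DMa (0.943), Lgmn most like Klf4 (0.947) and Ctsb most like Cd68 (0.983). Ctsd was most like Fxyd5 (0.966), Ctsl most like Mpeg1 (0.979) and Ctsc most like Ifit2 (0.948). Ctsz was most like another member, Ctsh (0.967), Ctsh most like Cybb (0.980) and Ctsa most like Psap (0.941).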

How the data were processed

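The deposited expression matrices hold raw UMI counts per gene and cell barcode, and the V(D)J tables list receptor contigs. Per the submitters' processing notes, Cell Ranger 6.0.0 and the mouse build GRCm38 (mm10) were used. Barcodes with under 200 genes, over 10% mitochondrial UMIs, a Scrublet doublet call (5 control and 6 knockout barcodes) or 2 heavy chains (0 and 6) were removed. After scaling each cell to 10000 counts and taking logs, 2000 variable genes, 30 components and 15 neighbours entered Leiden clustering at resolution 1 (scanpy 1.11.5), which gave 18 clusters. Immunoglobulin genes and 80 lysosomal, inhibitor and class II genes were left out of it. Clusters were named from the marker list with the highest score, the mean log2 ratio of its markers to all other cells. That score had to be at least 1, and at least 3 of its markers had to be in 10% of cells. At least 1 of its markers had to be among the 25 leading genes of the cluster, and no other list could have more there. A neutrophil name also needed 2 of 4 defining markers.

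UMIs were summed per class and library. Ratios carry exact conditional binomial intervals, levels exact Poisson intervals and shares Clopper-Pearson intervals, all at 95% and for counting error only. A count of 0 was set to 3. Backgrounds count genes with at least 50 UMIs in the groups compared. Named genes are all 10 members, up to 4 genes with the most UMIs of each other list where the text describes it, and the genes most like each member. Apoe, Psap, C1qa and Gpnmb in the richest cell, the genes that passed within other lists, and those behind the cluster names were named after their values were seen. The members, lists and tests were chosen with earlier results of these data known. The ratio intervals were also run on simulated Poisson counts summed over a class. That simulation has no spread between cells, so it cannot show how the intervals hold where single cells weigh on a class.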

Additional observations from a re-analysis of the deposited data

Results flagged for a closer look

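These are member genes whose knockout over control ratio lay on one side of 1 in one cell group and on the other side in another, with neither counting interval including 1. None of these differences was tested, since each genotype is 1 library. Ctss had a ratio of 1.08 in macrophage-like cells and 1.61 in the Gpnmb cluster but 0.850 in B-like cells. Ctsb had a ratio of 1.40 in macrophage-like cells but 0.868 in pDC-like and 0.653 in T-like cells. Ctsd was at 1.38 in macrophage-like and 0.780 in T-like cells. Without the richest knockout macrophage-like cell the macrophage-like ratios were 1.06 (0.981 to 1.14) for Ctss, 1.09 (1.01 to 1.16) for Ctsb and 0.817 (0.712 to 0.934) for Ctsd. Without the top cells the Gpnmb cluster ratio of Ctss was 1.15 (0.899 to 1.47). Both of these Ctss intervals include 1. Ctsz had a ratio of 1.15 in macrophage-like cells and 2.12 in T-like cells but 0.696 in NK-like cells, and without the richest cell the macrophage-like ratio was 0.990. Ctsh had a ratio of 1.38 in the Gpnmb cluster and 8.52 in T-like cells, the latter from 1 and 7 UMIs, but 0.856 in macrophage-like cells. Without the top cells the Gpnmb cluster ratio of Ctsh was 1.28 (0.906 to 1.76), an interval that includes 1. The B cell markers summed to 272 and 695 CPM in T-like cells, and their part in the T-like ratios was not tested. The clusters pooled as T-like were mixed in unlike proportions in the control and knockout libraries, and the part of this was not tested either. Ctsc had a ratio of 1.31 in B-like cells and 0.836 in macrophage-like cells. The ratio of Ifi30 in the C1q over the Vcan sub-cluster was 0.793 (0.688 to 0.915) in the control and 1.48 (1.18 to 1.87) in the knockout library, and 1.31 (1.04 to 1.66) in the latter without its richest cell.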

How the results depend on the processing

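Counts of members past a threshold stayed within 1.5 times in 160 of 190 recomputations, though the genes behind a count could change. The Gpnmb cluster gave no count at resolution 0.5 or with a per-cell marker gate. With no barcode filter or mean per-cell CPM 4 members were higher in it, without Ctss and Ctsc. Among the 6 members lower in NK-like than in B-like cells, Ctsl took the place of Ctsc at resolutions 0.5 and 1.5, with no barcode filter and with the gate. For plasma-like over B-like cells, UMIs outside immunoglobulin genes and median-of-ratios size factors each gave 2 higher and 3 lower, and a 4-fold threshold 0 and 3. At 4-fold, 2 members were higher in pDC-like cells (Ctsb and Ctsl). Ifi30 in the Gpnmb cluster was no longer called with median-of-ratios size factors or at 4-fold, leaving 0 lower. Knockout over control in B-like cells, Ctsl alone was called, and 0 were with a per-cell marker gate, at 2-fold or within the Fcrl5 cluster. There Ctsl had 0 control and 4 knockout UMIs, and the log2 value of -0.43 comes from setting 0 to 3 UMIs: it is a lower bound and shows no lower level in the knockout. In macrophage-like cells 5 members were higher with no barcode filter, with the marker gate or without cells holding a B cell UMI. There 1 was higher without each gene's top cell (Ifi30), 0 at 2-fold and 0 without the richest knockout cell, where Ctsl had a log2 ratio of -0.18. Within the C1q, Vcan and Ace sub-clusters 1, 0 and 1 were higher, and Ctsh (Vcan) and Ctsc (Ace) made 1 lower in each. Within the Vcan sub-cluster the log2 ratios of Ifi30 and Ctsl were -0.00 and -0.03. In NK-like cells 1 member (Ctsl) was lower at resolution 1.5, with the lists kept for clustering, with no barcode filter, with mean per-cell CPM or without the top cell, 0 were without members under 10 UMIs, and Ctsh was 1 higher with no barcode filter. Leaving out B cell UMIs, the sub-clusters, the richest cell and the top cells of pDC-like and Gpnmb cluster cells were alternatives chosen after seeing the data. Of the shares of cells, 61 of 80 moved when unthinned or thinned to 1000 UMIs. No paired analysis was possible because each genotype is 1 library.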

Other observations

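Conventional dendritic cell-like cells numbered 2 in the control and 5 in the knockout library. Ifi30 was at 4144 and 2415 CPM in them, from 107 and 86 UMIs, and made 54.9% and 39.8% of their UMIs of the 10 genes. So few cells allow no comparison. T-like cells, 50 and 62, had Ctsd as their leading member at 575 and 449 CPM, with Ctss at 160 and 186 CPM and no Ctsl UMI in either library.

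Among knockout B-like cells with a heavy-chain contig, 244 were unswitched and 29 class-switched. Ctss was at 497 CPM in unswitched and 356 CPM in switched cells, a ratio of 0.717 (0.563 to 0.905), and Ctsh at 464 and 587 CPM, a ratio of 1.26 (1.04 to 1.54). Within the Fcrl5 cluster (127 and 23 cells) the ratios were 0.753 (0.555 to 1.01) and 1.12 (0.877 to 1.44). Among all these B-like cells, the intervals of the other members included 1, and the ratios were not set beside those of all genes. The switched cells were the deeper ones, with 91 Ctss UMIs in 29 cells against 351 in 244 unswitched cells. The part of depth in these ratios was not tested. Intervals cover counting error only, and the cells come from 1 library.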
